A study of Mus musculus with 3 samples.

Results

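The genes of the proteasome subunits were compared between mouse kidney rudiments of 11.5 and 13.5 days post coitum (dpc). A gene was taken as a member when a feature of the array carried exactly 1 gene symbol made of Psm, a letter from a to g and a number. This gave 47 genes on 48 of the 21819 gene features, and 40 of the 47 had a value on all 3 arrays, among 19015 rows tested. The members were 19 genes of the core (Psma and Psmb), 20 of the cap (Psmc and Psmd), 4 activators or inhibitors (Psme and Psmf) and 4 assembly chaperones (Psmg). These classes follow the symbols, so cap counts and medians include the assembly factors Psmd5, Psmd9 and Psmd10.

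The tissue came from untreated CD1 mice, with metanephroi microdissected at 11.5 dpc and fetal kidneys at 13.5 dpc, each a pool of both sexes. Amplified RNA of both ages was put together on each of 3 two-channel arrays of long oligonucleotides, with no common reference. The dyes were ordered red/green on arrays 1 and 2 but green/red on array 3. No label says whether the arrays stand for separate RNA pools, so every p-value here measures only the spread between 3 arrays, which may be technical. Each value is a log2 ratio of the channels. A positive value is read as higher at 11.5 dpc, because the labels name that age first and place it in channel 1. That reading is likely and not settled, and all directions turn with it.

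The proteasome is the protease that destroys proteins tagged with ubiquitin. Its barrel-shaped core is built of outer rings of alpha subunits, which gate the entrance, and inner rings of beta subunits, some of which cut peptide bonds. A cap sits on the end of the barrel: its base holds a ring of ATPases that unfold the substrate, and its lid removes the ubiquitin chain. Other activators can take the place of the cap, and dedicated chaperones build the particle. Growing and dividing tissues, such as an embryonic organ, depend on the proteasome to clear cyclins and other short-lived regulators.

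The median of the mean log2 ratios over the 40 measured members was 0.11, against -0.0084 over all rows. The mean lay between -0.5 and 0.5 for 32 of the 40 (80%), a share near the 81.3% of all rows. On arrays 1, 2 and 3 the proteasome medians were 0.16, 0.22 and 0.066, against 0.011, 0.064 and -0.091 over all rows, so the median of the members lay above that of the table on each array by a small amount. The mean was positive for 27 members and negative for 13, where 49.1% of all rows were positive. With limma over all rows and Benjamini-Hochberg adjustment, 0 of the 40 members had an adjusted p under 0.05, as had 0% of the 19015 rows. The smallest adjusted p among members was 0.415. At an unadjusted limma p under 0.05 there were 3 members on the positive side and 3 on the negative side, where the whole table had 4.17% and 5.07% of its rows (9.24% in all). They were the cap genes Psmd8 and Psmd6 and the assembly factor Psmd10 above 0, and the activator gene Psme3 and the cap genes Psmd1 and Psmd3 below it. Together they are 6 of 40 members.

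For 31 of the 40 members (77.5%) the 95% limma interval of the mean lay inside a 2-fold difference either way, against 64.1% of all rows. The half-width of the interval ran from 0.40 to 2.41 log2 units with a median of 0.46. A mean smaller in size than its half-width has an interval that includes 0, without adjustment for the number of rows. The adjusted threshold asks for more. Psme3, with a mean of -0.88 and an interval from -1.35 to -0.42, had a limma adjusted p of 0.415. No member was at least 2-fold with 1 sign on all 3 arrays (0 of 40), a pattern held by 0.684% of all rows.

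**Figure D1:**
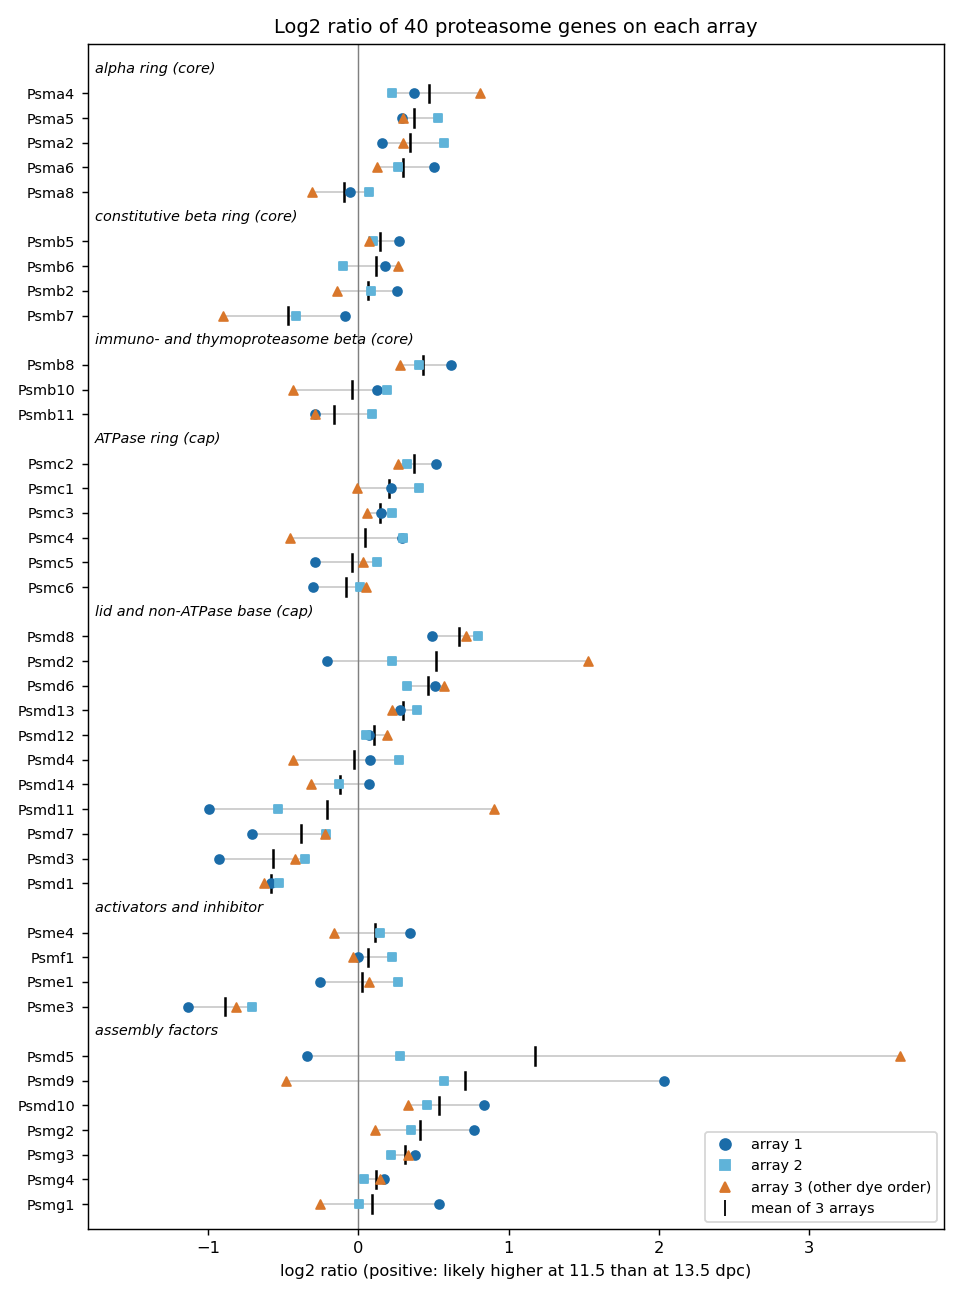
Log2 ratio of each of the 40 measured proteasome genes (vertical axis, by role) on arrays 1, 2 and 3 (circle, square, triangle); the black bar is the mean of the 3 arrays and the grey line their range. Psmd8 and the measured alpha ring genes other than Psma8 lie right of 0 on every array, Psme3, Psmd1, Psmd3, Psmd7 and Psmb7 lie left of it on every array, and Psmd5, Psmd9, Psmd11 and Psmd2 spread widest.

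Of the 8 alpha ring genes on the array, 5 were measured, and 4 of these were positive on all arrays, as were 16.8% of all rows. Those 4 lie in 1 stretch of the oligonucleotide library, described below. There, 37.9% of the 29 other features with complete values were positive throughout. Psma4 had log2 ratios of 0.37, 0.23 and 0.81 on arrays 1, 2 and 3, Psma5 had 0.29, 0.53 and 0.30, and Psma6 had 0.50, 0.27 and 0.12. All 3 genes encode alpha subunits and lay above 0 on every array. Their means were 0.47 ± 0.30 (SD, n = 3 arrays), 0.37 ± 0.14 and 0.30 ± 0.19, with limma adjusted p of 0.553, 0.553 and 0.614. Psma2 had a mean of 0.34 ± 0.21 and was positive throughout as well. The fifth measured gene, Psma8, encodes an alpha subunit of male germ cells that replaces Psma7; it had -0.054, 0.072 and -0.31, values on both sides of 0. The median over these 5 alpha genes was 0.34. With the sign of array 3 turned, Psma4 had a mean of -0.070, while Psma2, Psma5 and Psma6 stayed positive (0.14, 0.18 and 0.21).

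The catalytic beta subunits did not share 1 direction. Psmb5, which carries the chymotrypsin-like activity, had 0.27, 0.095 and 0.075, and Psmb6, which carries the caspase-like activity, had 0.18, -0.099 and 0.27. Psmb7, with the trypsin-like activity, had -0.089, -0.41 and -0.90. Psmb5 was thus weakly positive and Psmb7 negative on each array as deposited. The means were 0.15 ± 0.11 for Psmb5, 0.12 ± 0.19 for Psmb6 and -0.47 ± 0.41 for Psmb7 (SD, n = 3 arrays; limma adjusted p = 0.747, 0.813 and 0.58). Psmb7 had its lowest value on array 3, and its mean became 0.13 with that array turned. Psmb2, a structural beta subunit, had 0.25, 0.087 and -0.14, with a mean of 0.066 ± 0.20.

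Cells that respond to interferon replace the catalytic subunits with inducible ones, Psmb8 in the place of Psmb5, Psmb9 of Psmb6 and Psmb10 of Psmb7, to form the immunoproteasome. Psmb8 had 0.62, 0.40 and 0.28 as the average of 2 features and was positive on all arrays, with a mean of 0.43 ± 0.17 (limma adjusted p = 0.539). Its features had nearly the same means, 0.44 and 0.43, though on array 3 they read 0.10 and 0.45. Psmb10 had 0.12, 0.19 and -0.43, positive on the arrays of 1 dye order and negative on the other. The thymus subunit Psmb11 had -0.29, 0.094 and -0.29. Genes of antigen processing and interferon response, which are commonly induced together with Psmb8, had a median of -0.032 over 12 measured genes. Of these, 1 was positive and 2 were negative on all arrays, and 5 means were positive and 7 negative. The smallest limma p among them belonged to Erap1 (-0.43 ± 0.19) and B2m (-0.39 ± 0.085). On the other side H2-D1 had the highest mean of the list, 0.45 ± 0.42. Leukocyte and macrophage markers, whose cells carry immunoproteasomes, had a median of 0.089 over 12 measured genes. Their means ran from -0.75 to 0.28, with 4 positive and 1 negative on all arrays, and their part in the value of Psmb8 was not tested. Aif1 had 0.28 ± 0.17 and Itgam had -0.75 ± 0.65.

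In bulk tissue a change in the cells present and a change of RNA in each cell cannot be told apart, which holds for every ratio here. A ratio does not show a level, so the labelled tissue could not be checked by the presence of its markers. The 12 kidney rudiment markers had a median of -0.19, with 3 positive and 6 negative on all arrays. Pax8, of the first nephrons, had -0.79 ± 0.13 and Foxd1, of the stromal progenitors, had 0.72 ± 0.36. Over 8 erythroid genes the median was 0.82, with 6 positive on all arrays, led by Klf1 (2.18 ± 0.22) and Hbb-bh1 (4.07 ± 1.09), while Gata1 had -0.73 ± 0.80. Endothelial genes had a median of -0.55 (5 genes; Cdh5 -0.55 ± 0.11, Tek -0.68 ± 0.43, and Kdr 0.063 ± 0.46). For neural crest the median was -1.03 (3 genes), with Uchl1 at -1.10 ± 0.24 and Th at -1.03 ± 0.40. The other gene, Sox10, had -0.72, 0.83 and -0.53 on arrays 1, 2 and 3. Its mean was -0.14 ± 0.85, so these genes were not uniformly lower. The germ cell median was -0.43 (3 genes: Dazl -0.57 ± 0.35, Ddx4 -0.43 ± 0.20, and Pou5f1 on the other side at 0.26 ± 0.61). The part of these cell types in the proteasome values was not tested.

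The ATPase ring of the cap, which was measured in full with 6 genes, lay near 0 with a median of 0.095. Psmc2 had 0.52, 0.33 and 0.27 and had the highest mean of the ring (0.37 ± 0.13, limma adjusted p = 0.553). With array 3 turned its mean was 0.19, below those of Psmc4 (0.35) and Psmc1 (0.21). Psmc1 followed with 0.22, 0.40 and -0.0087. At the other end Psmc6 had -0.30, 0.0086 and 0.051, and Psmc5 had -0.29, 0.12 and 0.029. Both were negative on array 1 and slightly positive on the others. Psmc3 was positive throughout with a mean of 0.15 ± 0.084, and Psmc4 had a mean of 0.044 ± 0.43. These 6 ATPases form a ring together in every cap, and apart from Psmc2 and Psmc1 their means lay between -0.080 and 0.15.

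Of the 11 lid and non-ATPase base genes, 4 were positive on all arrays, 3 were negative and 4 had mixed signs. Psmd8, a small lid subunit whose addition completes lid assembly, had 0.49, 0.80 and 0.72, giving a mean of 0.67 ± 0.16 (SD, n = 3 arrays), or 1.59-fold. Its limma adjusted p was 0.475 and its 95% interval ran from 0.23 to 1.10. Psmd6, another lid subunit, had 0.51, 0.32 and 0.57 (mean 0.47 ± 0.13), and lid subunits Psmd13 and Psmd12 were positive on every array at 0.30 ± 0.084 and 0.10 ± 0.078. On the negative side stood Psmd1, a large scaffold of the base, with -0.58, -0.53 and -0.63. Its mean of -0.58 ± 0.050 had the smallest spread of any member (1.49-fold, limma adjusted p = 0.496, interval from -0.98 to -0.18). The lid subunit Psmd3 had -0.92, -0.35 and -0.42, with a mean of -0.57 ± 0.31, and Psmd7, the partner of the deubiquitinase in the lid, had a mean of -0.38 ± 0.28 and was negative throughout. The values of Psmd8 lay apart from those of Psmd1 and Psmd3 on the arrays as deposited. That separation is no separate evidence, since these genes were set side by side for the highest and lowest means of the 11.

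Psmd14, the lid enzyme that cuts off the ubiquitin chain, had a mean of -0.12 ± 0.19, and the ubiquitin receptor Psmd4 had -0.030 ± 0.36. Both had values on either side of 0. Psmd2, the base scaffold that receives shuttle proteins, had -0.21, 0.22 and 1.53, so that its mean of 0.52 ± 0.90 rests on array 3. Psmd11 had -0.99, -0.54 and 0.90, with opposite signs between the dye orders. Over the 11 lid and non-ATPase base genes the median was -0.030, with 4 positive and 3 negative on all arrays, where 16.8% and 18.5% of all rows were.

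Of the activators and inhibitors, Psme3 had the most negative mean of all 40 members. It encodes the activator of the nucleus, which opens the core without ubiquitin or ATP. Its log2 ratios were -1.13, -0.70 and -0.82, all below 0. The mean was -0.88 ± 0.22 (SD, n = 3 arrays), a level likely 1.85-fold lower at 11.5 dpc. The unadjusted limma p was 0.0062, the adjusted p 0.415 and the 95% interval -1.35 to -0.42, and 2.82% of all rows had a lower mean. Turning array 3 left a mean of -0.34, above those of Psmd5 (-1.22), Psmd11 (-0.81) and Psmd2 (-0.50), so the rank holds for the arrays as deposited. The related Psme1, which joins with Psme2 into the interferon-induced activator, had -0.25, 0.26 and 0.073 and a mean of 0.027 ± 0.26, and no feature was assigned to Psme2. The large nuclear activator Psme4 had 0.34, 0.14 and -0.16, and Psmf1, first described as an inhibitor, had -0.0043, 0.23 and -0.034. On the arrays as deposited, the values of Psme3 lay below those of Psme1, Psme4 and Psmf1. That separation is no separate evidence, since Psme3 was set against them for its lowest mean.

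All 7 measured assembly factors had a positive mean, with a median of 0.41, and 4 of them were positive on every array, where 49.1% of all rows had a positive mean and 16.8% were positive on every array. Without array 1 the mean of Psmg1 was -0.13 and that of Psmd9 0.046. Psmg1 and Psmg2 act as a pair in building the alpha ring, as do Psmg3 and Psmg4. Psmg2 and Psmg3 had means of 0.41 ± 0.33 and 0.31 ± 0.083 and Psmg4 had 0.17, 0.038 and 0.15, all positive on every array. Psmg1 had 0.54, 0.0029 and -0.25. The cap chaperones Psmd5, Psmd9 and Psmd10 help the ATPase ring form. Psmd10 (gankyrin) had 0.83, 0.46 and 0.33, a mean of 0.54 ± 0.26 and a limma adjusted p of 0.539. The others gave discordant arrays. Psmd5 had -0.34, 0.28 and 3.60, so its mean of 1.18 ± 2.12 rests on array 3 and was -0.034 without it. Psmd9 had 2.04, 0.57 and -0.48 (mean 0.71 ± 1.26).

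**Figure D2:**
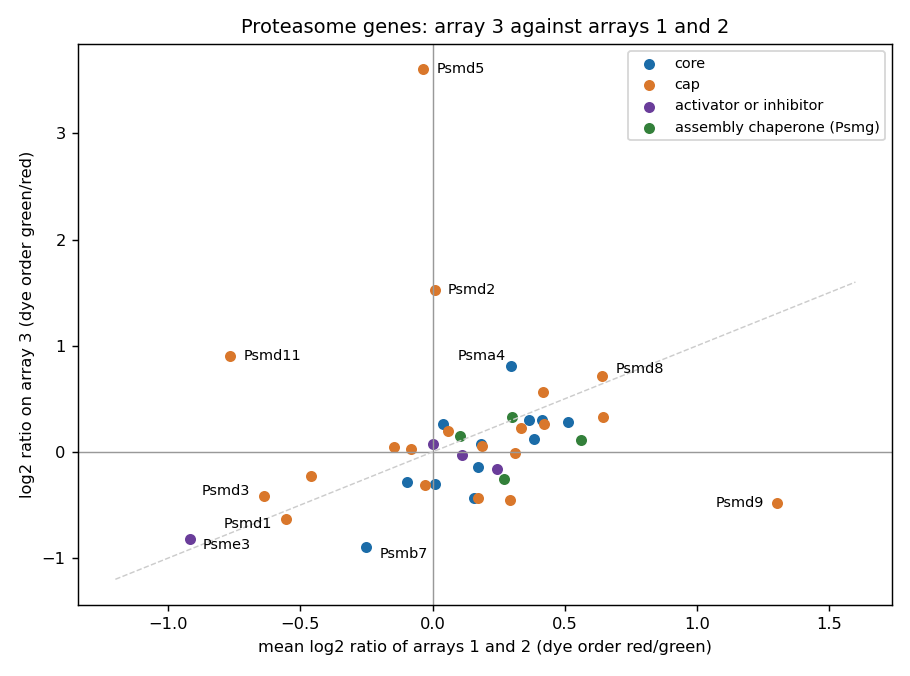
Log2 ratio on array 3 (vertical axis) against the mean of arrays 1 and 2 (horizontal axis) for the 40 measured proteasome genes, coloured by class; the dashed line marks equal values. Most points lie near the origin, Psme3, Psmd1 and Psmd8 lie near the line, and Psmd5 (3.60 on array 3), Psmd2, Psmd11 and Psmd9 lie far from it.

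The arrays agreed on the order of the members to different degrees. Across the 40 genes, Spearman correlation was 0.66 between arrays 1 and 2, 0.28 between arrays 1 and 3 and 0.41 between arrays 2 and 3. The Pearson values were 0.73, -0.023 and 0.31, against 0.27, 0.12 and -0.12 over all rows. These are correlations across genes within the same 3 hybridisations, and arrays 1 and 2 also share a dye order. Array 3 gave the lowest of the 3 values for 21 members and the highest for 8. Over all rows array 3 also had the lowest median (-0.091, against 0.011 and 0.064 on arrays 1 and 2). Its SD over all rows was the widest (0.93, against 0.56 and 0.75). The same count was not made over all rows, so it is not read as a trait of the members.

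Counted by sign, 16 of the 40 members (40%) were positive on all 3 arrays, where 16.8% of all rows were. Another 5 (12.5%) were negative on all 3, where 18.5% of all rows were. By class, 6 of 12 core genes, 7 of 20 cap genes and 3 of 4 Psmg chaperones were positive throughout, and 1, 3 and 0 negative; of the 4 activators or inhibitors 0 were positive throughout and 1 negative. On arrays 1 and 2 alone, 24 members (60%) were positive on both, against 35.8% of rows, and 6 (15%) negative, against 28.8%. With array 3 turned, 8 members (20%) were positive throughout, near the 18.9% of all rows, so that the share over 3 arrays depends on the orientation of array 3, and 1 (2.5%) was negative, where 10.3% of rows were.

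**Figure D3:**
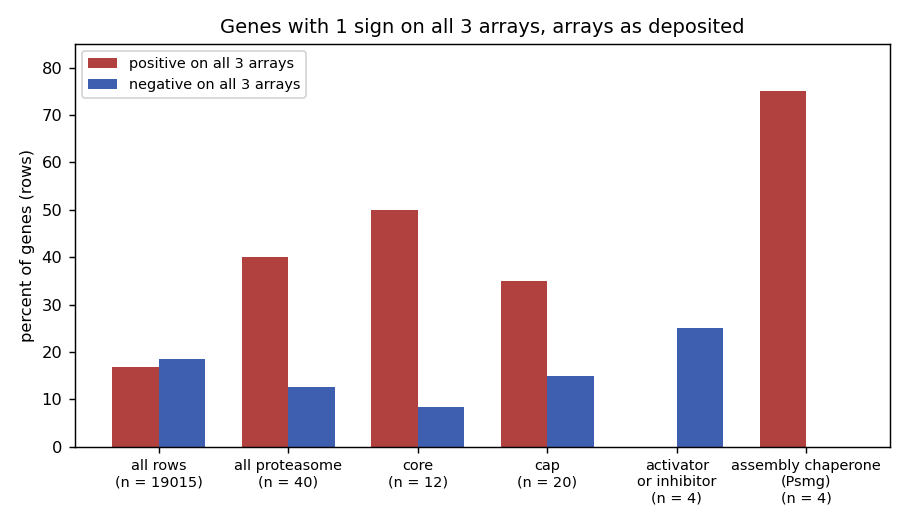
Percent of genes positive (red) or negative (blue) on all 3 arrays as deposited, for all 19015 rows, the 40 proteasome genes and each class. All proteasome genes together show 40% positive and 12.5% negative against 16.8% and 18.5% of all rows; activators have no red bar and Psmg chaperones no blue bar.

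Most core features, and the members with missing values, fell in 1 stretch of the oligonucleotide library. Of the 48 proteasome features, 22 carry feature numbers between 2283 and 2339, and 18 of those 22 belong to the core. All 7 members without a complete set of values lie there: Psma1, Psma3, Psma7, Psmb1, Psmb3, Psmb4 and Psmb9. Incomplete features made up 35% of core features and 0% of cap features, against 6.57% of all gene features. Among the 35 other gene features of the same stretch, 6 (17.1%) were incomplete. Psma3, Psmb4 and Psmb9 had no value on any array. Psma1 had 0.15 on array 2, Psma7 had 1.67 and Psmb3 1.17 on array 3, and Psmb1 had 0.44 and -2.40 on arrays 2 and 3. Ratios of these genes thus could not be compared with those of the measured core.

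The other features of that stretch also ran above the table. Those 29 with complete values had medians of 0.24, 0.12 and -0.028 on arrays 1, 2 and 3, and 11 of them (37.9%) were positive and 6 (20.7%) negative throughout, against 16.8% and 18.4% of all features. The 15 complete proteasome features in the stretch had 0.25, 0.23 and 0.10, with 9 (60%) positive and 1 (6.67%) negative throughout. The 26 proteasome features elsewhere had medians of 0.033, 0.18 and 0.040, with 8 (30.8%) positive and 4 (15.4%) negative throughout. For the 4 cap features in the stretch the median of the means was 0.057, with 2 (50%) positive and 0 negative throughout. The 16 cap features outside it had 0.15, with 5 (31.25%) positive and 3 (18.75%) negative. The only core features outside the stretch were Psmb11 and Psma8, so place and subunit type cannot be told apart within the core. When the median of the 25 nearest other features on each side was subtracted on each array, the core median went from 0.13 to 0.036, the cap median from 0.12 to 0.020 and the median of all members from 0.11 to 0.079. Psme3, Psmd1, Psmd3, Psmd8, Psmd6 and Psmd10 lie outside the stretch, and each kept its sign under that subtraction.

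**Figure D4:**
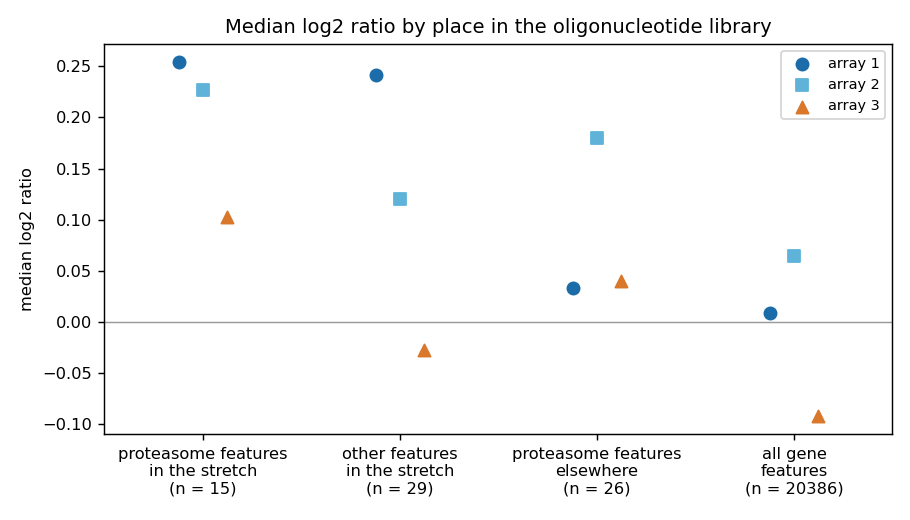
Median log2 ratio on arrays 1, 2 and 3 (vertical axis) of complete features, for the 15 proteasome features in the stretch of feature numbers, the 29 other features there, the 26 proteasome features elsewhere and all 20386 gene features. On array 1 the other features of the stretch (0.24) sit nearly as high as its proteasome features (0.25), while proteasome features elsewhere sit at 0.033.

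Genes that work beside the proteasome were examined for the same comparison. Of the proteasome partners outside the symbol rule, 8 were measured, with a median of -0.014, 3 positive and 1 negative on all arrays. The smallest limma p among them belonged to Usp14, a deubiquitinase that docks on the cap, with 0.49, 0.48 and 0.59 and a mean of 0.52 ± 0.062 (adjusted p = 0.516). Sem1, the smallest lid subunit, had 0.075, 1.22 and 0.054 and came next, with a value on array 2 far above the others. Nfe2l1, the transcription factor that raises proteasome genes when the protease is impaired, had a mean of 0.042 ± 0.25. Shuttle and unfolding factors had a median of -0.12 over 8 genes with 0 positive and 3 negative throughout, Ubqln1 (-0.86 ± 0.91) and Ufd1 (-0.38 ± 0.58) having the smallest p. The COP9 signalosome, a relative of the lid, had a median of -0.020 over 8 genes, with 2 positive and 3 negative throughout; Cops5 had -0.46 ± 0.26 and Cops2 -0.31 ± 0.19. Of ubiquitin and its activating enzymes only Uba6 was measured (0.10 ± 0.41). Over these 4 lists and that of antigen processing and interferon, 0 genes had a limma adjusted p under 0.05, and Usp14 alone had an unadjusted p under that level.

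Nfe2l1 and Nfe2l2 bind the antioxidant response element, so the 250 bases before each start in RefSeq (GRCm38.p6) were searched for its core, TGACNNNGC, on both strands. Among 41 promoters of 39 member genes, 5 (12.2%) held a match, against 10.2% of 32851 promoters of the same length. The CCAAT box, in either orientation, was in 34.1% and 33.8%. These shares were near each other for both motifs. The 5 genes with a match to the element, all measured, were Psmb5, Psmb6, Psmc6, Psmd12 and Psmd9, with a median mean log2 ratio of 0.12, and 28 measured members with a promoter and no match had 0.16. A match describes letters and not a bound site. The sequences below are the promoters of catalytic subunits with a match, Psmb5 (chr14:54617996-54618245, minus strand) and Psmb6 (chr11:70525107-70525356, plus strand). Beside them stand those of Psmd8 (chr7:29180674-29180923, minus strand) and Psmd1 (chr1:86064369-86064618, plus strand), which were positive and negative on all arrays and have no match. Each runs 5′ to 3′ on the strand of the gene and ends at the base before the start, with the element core in capitals. In Psmb5 the match begins 47 bases before the start, and in Psmb6 it begins 9 bases before it.
Psmb5: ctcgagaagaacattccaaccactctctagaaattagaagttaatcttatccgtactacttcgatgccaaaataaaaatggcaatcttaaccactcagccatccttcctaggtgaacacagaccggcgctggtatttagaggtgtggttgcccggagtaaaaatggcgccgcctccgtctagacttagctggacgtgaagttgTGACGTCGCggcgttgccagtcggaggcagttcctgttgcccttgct
Psmb6: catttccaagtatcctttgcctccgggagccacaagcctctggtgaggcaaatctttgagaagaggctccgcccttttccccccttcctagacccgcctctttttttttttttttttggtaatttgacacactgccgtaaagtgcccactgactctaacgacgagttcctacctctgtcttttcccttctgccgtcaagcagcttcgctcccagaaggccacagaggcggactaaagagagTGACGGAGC
Psmd8: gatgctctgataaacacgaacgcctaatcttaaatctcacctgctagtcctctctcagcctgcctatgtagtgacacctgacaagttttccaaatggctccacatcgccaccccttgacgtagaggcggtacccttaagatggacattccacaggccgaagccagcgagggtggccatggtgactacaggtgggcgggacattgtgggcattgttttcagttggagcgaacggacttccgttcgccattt
Psmd1: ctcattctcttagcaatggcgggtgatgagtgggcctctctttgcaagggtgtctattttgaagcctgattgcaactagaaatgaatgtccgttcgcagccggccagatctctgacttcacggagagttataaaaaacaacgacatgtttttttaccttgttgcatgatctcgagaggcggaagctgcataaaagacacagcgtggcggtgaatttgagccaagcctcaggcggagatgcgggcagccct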

How the data were processed

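Members, gene lists and tests were chosen with earlier results of these data known. The deposited values are log2 ratios of the 2 channels, normalised by the authors; per the labels, ImaGene 5.5 was used to quantify the images. The labels give 2 accounts of the normalisation: print-tip loess with a step between arrays, and a Lowess curve over 20% of the data that adjusts the control channel, floored at 10. No source used here says which one made these log2 ratios. The base was found from the values: 2 raised to a value fell on a step of 0.001 for 100% of those between -3 and 2. Background, saturation and the strength of each spot are unknown, since no intensities were analysed here.

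Of 22702 features, 883 controls or blanks were left out. Features that lacked a value on any array were dropped, those of 1 symbol were averaged, and features with several symbols (137) stayed unnamed. The 19015 rows were fitted with limma 3.58.1 (R 4.3.3; lmFit, eBayes, mean against 0, two-sided, Benjamini-Hochberg over all rows), a procedure tested on simulated data. Shares of all rows, given where they were counted, take the place of a test on members. Values by array are given for the catalytic subunits and their inducible forms, activators, and the 2 highest and 2 lowest genes of each role. Other members are given by mean. Psmd6 and Psmd10 with their arrays were added after their values were seen. The same holds for Psmd11, Psmb1, Psma1, Psma7, Psmb3, Nfe2l1, Pou5f1, Kdr, Gata1, H2-D1 and Sox10. From each list the 2 genes with the smallest p are named. The lists were proteasome partners, ubiquitin and its activating enzymes, shuttle and unfolding factors, COP9 signalosome, antigen processing, leukocyte, erythroid, kidney rudiment, endothelium, neural crest and germ cell genes. Alternatives were each array left out, array 3 turned, median centring, scaling, quantile normalisation, a running median over 501 features, medians of features or single features, values on at least 2 arrays and a dye term. A running median over 51 features and the subtraction of near features were added after the data were seen.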

Additional observations from a re-analysis of the deposited data

How the results depend on the processing

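No row of the whole table and no member passed the adjusted limma threshold of 0.05 under any alternative (0 in each; 744 to 2669 rows at an unadjusted p under 0.05). Of the 40 members, 18 kept the sign of their mean under all alternatives run, among them Psme3 (-0.99 to -0.34), Psmd1 (-0.70 to -0.16), Psmd3, Psmd8 (0.19 to 0.76), Psmd6, Psmd10, Psmb8, Psma2, Psma5 and Psma6, and 24 did when array 3 turned is set aside. The median of all members stayed between 0.070 and 0.17. That of all rows moved as well, from -0.047 without array 2 to 0.042 with array 3 turned. With array 3 turned the members had 0.10.

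With array 3 turned, 8 members were positive and 1 negative on all arrays. At an unadjusted limma p under 0.05 there was then 1 of each sign, where 4.39% of all rows were positive and 2.19% negative. The means that changed sign then were Psma4 -0.070, Psma8 0.11, Psmb10 0.25, Psmb11 0.031, Psmb6 -0.062, Psmb7 0.13, Psmd12 -0.025, Psmd14 0.087, Psmd2 -0.50, Psmd4 0.26, Psmd5 -1.22, Psme1 -0.022, Ddx4 0.0048, Itgam 0.13 and Uba6 -0.26. That series of means covers the members and the 2 genes of smallest p from each gene list. The dye term gave 5 positive members at an unadjusted limma p under 0.05, where 7.34% of all rows were positive at that level. It gave means of -0.081 for Psmc4 and 0.068 for Psmd11.

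A running median over 51 features lowered the core median to 0.028 and the cap median to 0.0097, and changed the sign of Psma8 (0.061), Psmb2 (-0.094), Psmb5 (-0.020), Psmb6 (-0.027), Psmc3 (-0.019), Psmc4 (-0.0049) and Psmf1 (-0.026). Subtracting near features gave a core median of 0.036, with Psma8 at 0.067, Psmb2 at -0.068 and Psmf1 at -0.028. The causes were not tested.

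Without 1 array, the core median ran from 0.084 (array 1) to 0.20 (array 2), the activator median from -0.055 to 0.058 and members negative on both remaining arrays from 6 to 8 (14.6, 20 and 15% without arrays 1, 2 and 3, against 26.6, 31.1 and 28.8% of rows). Members positive on both were 21, 17 and 24 (51.2, 42.5 and 60%, against 24.4, 23.8 and 35.8% of rows). Members positive at an unadjusted limma p under 0.05 were 1, 0 and 2 without arrays 1, 2 and 3, against 1.48, 2.19 and 7.07% of rows. Members negative at that level were 1, 1 and 3, against 2.29, 3.11 and 5.25% of rows. Means ran from -0.029 to 0.17 for Psmb2, -0.081 to 0.29 for Psmc4, -0.13 to 0.076 for Psmc5, -0.15 to 0.030 for Psmc6, -0.76 to 0.18 for Psmd11, -0.010 to 0.24 for Psme4, -0.13 to 0.27 for Psmg1, -0.091 to 0.17 for Psme1, -0.019 to 0.11 for Psmf1, -0.18 to 0.0087 for Psma8, -0.16 to 0.16 for Psmb10, -0.18 to 0.17 for Psmd4, -0.034 to 1.94 for Psmd5 and -0.12 to 0.28 for Uba6. No paired analysis was possible because the arrays form 1 group; each ratio already sets both ages against each other on 1 array. Signal over background could not be assessed, and 3 arrays limit the precision.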
